A study of Mus musculus with 12 samples.

Results

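A cluster of Fbxw genes on chromosome 9 is transcribed in the mouse oocyte, and 10 of its genes are described here: Fbxw13, Fbxw14, Fbxw15, Fbxw16, Fbxw18, Fbxw19, Fbxw20, Fbxw21, Fbxw24 and Fbxw28. They were chosen by symbol and looked up by Ensembl gene ID, and they make up 10 of the 55573 genes counted in the study. F-box proteins are the substrate receptors of SCF ubiquitin ligases, in which the F-box binds the adaptor SKP1, the cullin CUL1 holds SKP1, and the RING protein RBX1 brings in the ubiquitin-conjugating enzyme. FBXW proteins carry WD40 repeats, which bind the substrate. Genes of the chromosome 9 cluster are known as rodent paralogs transcribed mainly in the oocyte, and the substrates of their proteins are not described here.

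Poly(A) RNA was sequenced in 12 libraries of fully grown mouse oocytes at the germinal vesicle (GV) stage, in which the nucleus is intact and meiosis is arrested in prophase. The methods name a healthy B6D2F1 female of 12 weeks as the source, the oocytes were released in medium with milrinone, which holds them in prophase, and the groups do not differ in treatment or genotype. Whole oocytes, 1 to a library, were amplified for 10, 14 or 18 cycles with 2 libraries at each number. Fractions of 1/2, 1/4 and 1/8 of an oocyte, again with 2 libraries each, were taken from lysates of 2 further oocytes and amplified for 18 cycles according to the methods, so 8 oocytes were used in all. Whether the replicate number of a fraction names the oocyte is not given. Synthetic ERCC (External RNA Controls Consortium) transcripts were added to each lysate as a spike-in. A library holds 1 oocyte or a part of one, and less RNA per oocyte cannot be told apart from a smaller share of it recovered or amplified.

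Depth differed between the groups. Whole oocytes gave 11597144 and 9189672 gene counts after 10 cycles, 12349577 and 13806199 after 14 cycles, and 3017069 and 1706478 after 18 cycles. Libraries of 1/2 gave 4024670 and 3598549 gene counts, those of 1/4 gave 4027907 and 5049518, and those of 1/8 gave 11404262 and 1702062. The whole oocytes at 18 cycles stood apart in their spike-in, with 1611 and 1474 ERCC counts against 25528 to 39046 in the other 4 whole oocytes. Reads carry no molecular identifiers, so they are not independent molecules, and the replicates of a group differed by more than counting error (chi-square per degree of freedom 10.03 to 16.7). Values are in CPM, which scales the count of a gene to the gene counts of its library, unless a sentence says otherwise.

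The GV oocyte label was checked against markers. All 10 oocyte markers, among them the growth factors Gdf9 and Bmp15 and the zona pellucida genes Zp1, Zp2 and Zp3, were counted in every library, and their summed level ran from 5983 to 25106 CPM. Gdf9, the most abundant, ranged from 1579 to 5874 CPM. Markers of granulosa and cumulus cells summed to 24.6 to 134 CPM over 10 genes, of which 5 averaged under 1 CPM. Nr5a2 led with a mean of 29.3 CPM and was similar between replicates, with 46.2 and 37.4 CPM at 10 cycles. Inha was uneven, with 34.1 and 0.326 CPM at 10 cycles, 3.64 and 31.9 at 14, and 17.2 and 0.586 at 18 cycles. Markers of theca and stroma summed to 0.248 to 34.2 CPM over 5 genes with Star as the most abundant. The 4 blood and immune markers summed to 0 to 4.16 CPM, and the globin gene Hba-a1 had no count in any library.

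The members occupy 563.3 kb of chromosome 9 (GRCm38), from 109139447 to 109702700, and all are transcribed from the minus strand. Fbxw21 (ENSMUSG00000047237) spans 109139447 to 109162041, Fbxw13 (ENSMUSG00000049314) 109179227 to 109195975, Fbxw20 (ENSMUSG00000061701) 109217432 to 109234754, Fbxw14 (ENSMUSG00000105589) 109270790 to 109287676 and Fbxw28 (ENSMUSG00000054087) 109322886 to 109339659. Farther along lie Fbxw16 (ENSMUSG00000074062) at 109432316 to 109449140, Fbxw19 (ENSMUSG00000074061) at 109476654 to 109495875, Fbxw15 (ENSMUSG00000074060) at 109552602 to 109568262, Fbxw24 (ENSMUSG00000062275) at 109601116 to 109626057 and Fbxw18 (ENSMUSG00000074059) at 109676734 to 109702700. The annotation lists 13 Fbxw genes in this stretch, since Fbxw22, Fbxw25 and the transcribed pseudogene Fbxw23 lie between the members. Fbxw26 and Fbxw27 follow directly after Fbxw18, which makes 15 Fbxw genes in a row, with 12.1 to 38.7 kb between neighbours. Exons of the members add up to 1488 to 3487 bases, and their GC content is 38.3% to 44.6% with a median of 44.0%.

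All 10 members had at least 5 counts in each of the 12 libraries, and all 10 passed the filter on low counts in each fit. The lowest count was 31, for Fbxw13 in a whole oocyte at 18 cycles, and the highest was 34629, for Fbxw24 in an oocyte at 14 cycles. Levels of different genes were compared per kb of exon in the 4 whole oocytes of 10 and 14 cycles, which are the libraries with the most counts among whole oocytes. Fbxw24 was the most abundant member at 1483 ± 143 CPM per kb (SD, n = 4), which ranked 12 among 17367 protein-coding genes with counts in these oocytes. Fbxw18 followed at 720 ± 37.7, Fbxw15 at 609 ± 22.1 and Fbxw16 at 462 ± 58.2 CPM per kb (SD, n = 4). Their ranges over the 4 oocytes did not overlap between neighbours in this order. Fbxw21 at 330 ± 44.6, Fbxw28 at 272 ± 25.5 and Fbxw19 at 251 ± 19.6 CPM per kb formed a middle group in which the ranges of neighbours overlapped. Fbxw14 at 185 ± 13.3 and Fbxw20 at 172 ± 10.4 CPM per kb also overlapped, and Fbxw13 was lowest at 77.7 ± 12.8 (SD, n = 4 each). Even Fbxw13 ranked 565, with 3.25% of the protein-coding genes above it. Per kb of the longest transcript instead of all exons, Fbxw19 moved up to 405 CPM per kb and stood above Fbxw21 and Fbxw28. The places of Fbxw28 and Fbxw14 in this order are less certain, since their transcripts are nearly identical.

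**Figure D1:**
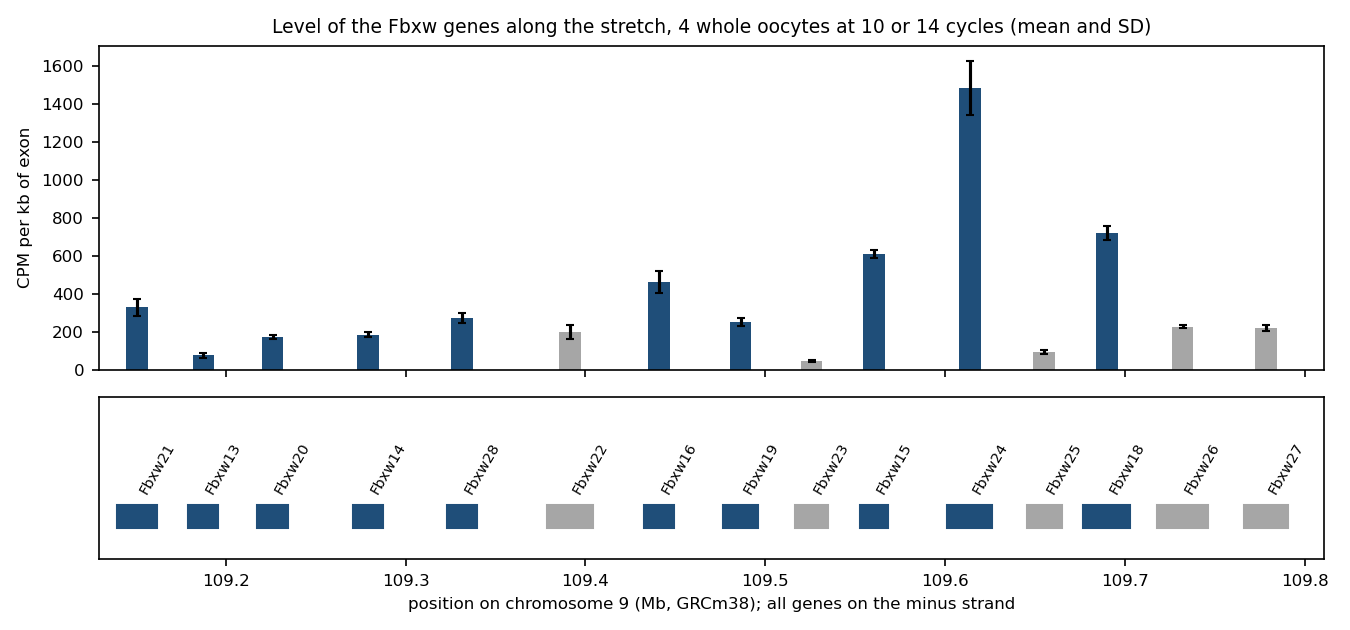
Level of each Fbxw gene in CPM per kb of exon (bars, mean, and error bars, SD, over 4 whole oocytes at 10 or 14 cycles) above its position on chromosome 9 in Mb (GRCm38). Blue marks the 10 members and grey the other 5 Fbxw genes, and Fbxw24 stands highest at 1483 CPM per kb while Fbxw23 stands lowest at 48.6.

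Because the paralogs are alike in sequence, the counts of some members are less certain than those of others. Aligned over their longest transcripts, the 45 pairs of members were 79.4% to 99.2% identical, with a median of 83.9%. Fbxw14 and Fbxw28 were the closest pair, 99.2% identical over 1619 aligned bases. Of all windows of 100 bases in their transcripts, 39.2% of those of Fbxw14 recur in Fbxw28 and 42.3% of those of Fbxw28 recur in Fbxw14. How reads that fit both copies were counted was not checked. The counts of this pair may be too low, and both they and the split between them are uncertain. For the other 8 members, at least 93.55% of such windows occur in no other gene. With windows of 50 bases the sharing was larger, 56.9% and 61.5% between Fbxw14 and Fbxw28, while 78.5% of windows of Fbxw16, 84.0% of Fbxw15 and at least 90.8% of the other 6 members occur in no other gene. The read length is not given, so which window size applies is open. Fbxw16 shares 210 exon bases with Gm42494 and Fbxw15 shares 168 with Gm42756, both on the opposite strand. The methods give default settings for HTSeq, which count by strand, but they name another version than the labels of the deposited counts, and the names of the deposited files carry the tag strno, which reads as counting without strand. Whether strand was used was not settled, and these values are uncertain too.

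Comparing whole oocytes of 10, 14 and 18 cycles asks whether the number of amplification cycles goes with the share of each transcript in the library. The members kept a similar share at 10 and 14 cycles and had a much smaller one at 18 cycles. Together they took 7995 and 7697 CPM at 10 cycles, 7985 and 9060 at 14, and 1414 and 1429 at 18 cycles. The means were 7846 ± 210, 8523 ± 760 and 1422 ± 10.6 CPM (SD, n = 2 each), so the cluster was 5.52-fold lower at 18 than at 10 cycles, far beyond the spread of the replicates. The drop showed in each member by itself, as the next values give.

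Fbxw24 had 2194 and 2022 CPM at 10 cycles, 2102 and 2508 at 14, and 383 and 314 at 18 cycles. Fbxw18 had 1030 and 1062 CPM, then 1144 and 1140, and then 161 and 162 in the same order of cycles. Fbxw15 had 888 and 925 CPM at 10 cycles, 878 and 950 at 14, and 184 and 227 at 18 cycles. In these 3 members, the most abundant per kb after 10 and 14 cycles, both oocytes at 18 cycles lay far below the other 4 oocytes. Fbxw16 had 796 and 744 CPM at 10 cycles, 801 and 983 at 14, and 85.8 and 124 at 18 cycles. Fbxw21 had 737 and 694 CPM, then 889 and 914, and then 151 and 150. Fbxw19 had 877 and 827 CPM at 10 cycles, 830 and 973 at 14, and 189 and 172 at 18 cycles. Again the oocytes at 18 cycles were lowest with no overlap, while those of 10 and 14 cycles overlapped in Fbxw19 and were higher at 14 cycles in Fbxw16 and Fbxw21. Fbxw28 had 531 and 500 CPM at 10 cycles, 489 and 599 at 14, and 84.2 and 85.6 at 18 cycles. Fbxw14, its near-identical copy, had 380 and 393 CPM, then 364 and 430, and then 87.8 and 56.8. Fbxw20 had 450 and 417 CPM at 10 cycles, 388 and 418 at 14, and 69.6 and 119 at 18 cycles. As a ratio, the oocytes at 18 cycles differed most from each other in Fbxw20 and Fbxw14, yet both oocytes stayed below all others. Fbxw13, the least abundant, had 111 and 113 CPM at 10 cycles, 100.2 and 145 at 14, and 18.2 in both oocytes at 18 cycles.

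**Figure D2:**
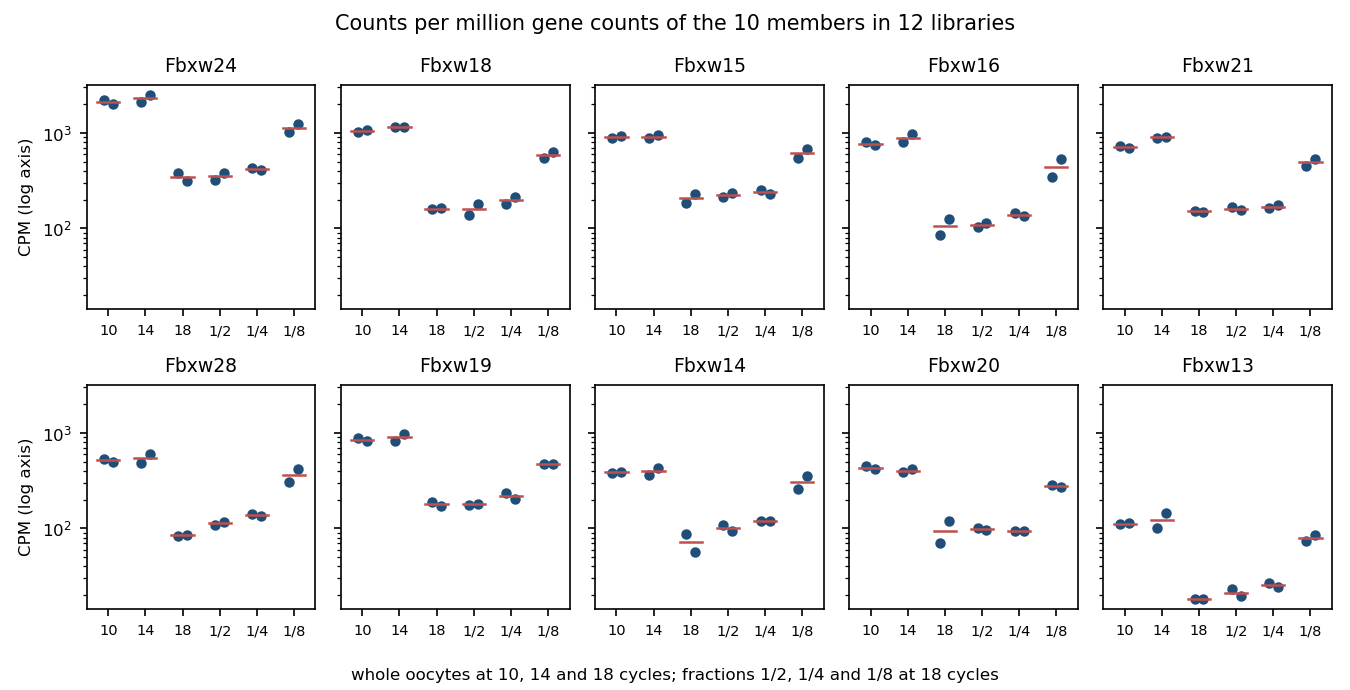
CPM (log axis) of each member in whole oocytes at 10, 14 and 18 cycles and in fractions of 1/2, 1/4 and 1/8, with 1 point per library and a line at the mean of the 2. In every panel the whole oocytes at 18 cycles lie below those at 10 and 14 cycles and the 1/8 fractions lie between, while per ERCC count 18 cycles and 10 cycles did not differ by the test for any member.

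Fold changes were tested over all genes with edgeR's quasi-likelihood test, with size factors from the median ratio over genes, Benjamini-Hochberg adjustment over all genes tested and a threshold of 0.01. Between 14 and 10 cycles, 0 of the 10 members passed, as did 0% of 17532 genes. No member had an unadjusted p under 0.05 in edgeR, DESeq2 called 0 as well, and the log2 fold changes ran from -0.14 for Fbxw20 to 0.30 for Fbxw21, with a median of 0.07. Between 18 and 10 cycles, all 10 members were lower with median ratio size factors, against 10.8% of genes called lower, whereas with ERCC size factors 0 of 10 passed and 5 of the 10 log2 fold changes were positive. The members' median log2 fold change was -2.25 beside -0.29 over all genes. Fbxw16 fell most, by 2.60 on the log2 scale (standard error 0.26, adjusted p = 9.73e-05, edgeR), and Fbxw15 fell least, by 1.87 (standard error 0.22, adjusted p = 0.000187, edgeR). Fbxw18 had the lowest adjusted p, 5.54e-05 in edgeR, and Fbxw20 the highest, 0.000562. Fbxw24, which carried 21.9% to 27.7% of the cluster's counts in each library, was 5.04-fold lower (standard error 0.20 on the log2 scale, adjusted p = 6.18e-05, edgeR). None of the members was at the extreme of the transcriptome, since 11.5% of the genes tested had a lower log2 fold change than Fbxw16 and 18.7% a lower one than Fbxw15. Between 18 and 14 cycles, all 10 members were lower again under the median ratio, against 10.7% of genes, and 0 passed with ERCC size factors (edgeR, 0 at an unadjusted p under 0.05), where 8398 of 17532 genes were higher and 2 lower. Here the log2 fold changes ran from -2.78 for Fbxw16 to -1.79 for Fbxw20 with a median of -2.33. The comparisons share the oocytes at 18 cycles, so the second is no independent repeat of the first.

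How the members moved relative to the spike-in was different. Per 1000 ERCC counts, the cluster had 2586 and 2771 counts at 10 cycles, 2769 and 3204 at 14, and 2649 and 1655 at 18 cycles. One of the oocytes at 18 cycles lay among those at 10 cycles and the other below all of them. Over all genes, the ratio of gene counts to ERCC counts was 4.43-fold higher at 18 than at 10 cycles, while that of the members was 0.803 of its value at 10 cycles. With ERCC size factors the median over all genes was 1.96 and that of the members 0.03 (-0.44 to 0.31), with 0 members called by edgeR and 0 at an unadjusted p under 0.05, while 8348 genes (47.6%) were called higher and 0 lower. DESeq2 was not run with these size factors. Relative to the other genes, the members were therefore lower by 1.95 under the median ratio and by 1.92 under ERCC scaling on the log2 scale, and the scaling moved all genes by more than 2 units together.

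**Figure D3:**
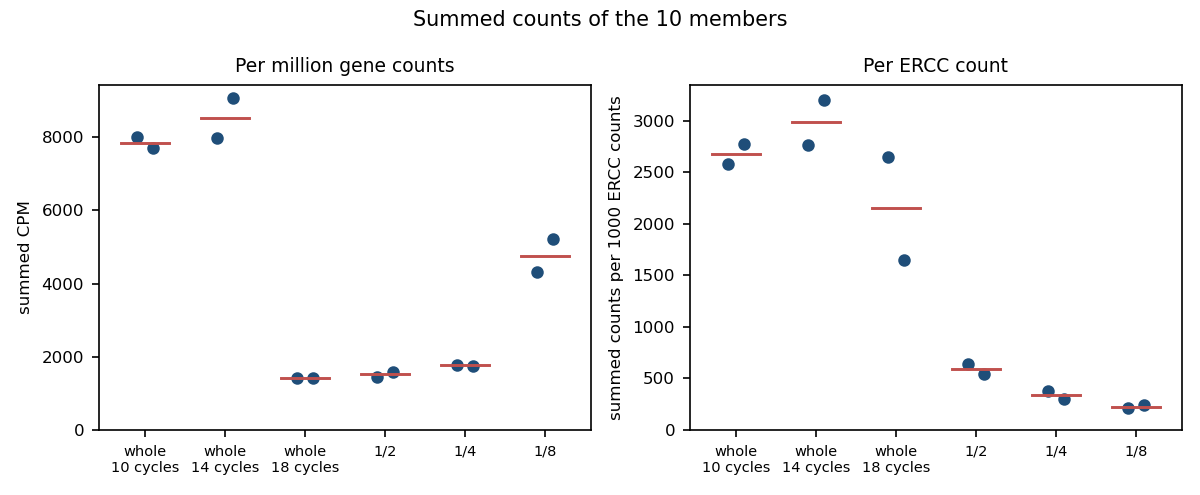
Summed counts of the 10 members in each library (points, with a line at the mean of 2), in CPM on the left and per 1000 ERCC counts on the right. In CPM the whole oocytes at 18 cycles lie near 1422 CPM and those at 10 cycles near 7846, while per 1000 ERCC counts the means were 2152 and 2678.

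Base composition, depth and cycle number changed together in these oocytes. Weighted by counts, the GC content of the libraries was 48.6% ± 0.162 at 10 cycles and 48.8% ± 0.048 at 14 cycles, against 50.6% ± 0.011 at 18 cycles (SD, n = 2 each). Genes called lower between 18 and 10 cycles had a median GC content of 45.4% and genes called higher 53.7%, beside 49.0% over all genes tested and 44.0% in the members. Their part in the result was not tested, and cycle number, oocyte, depth and preparation cannot be told apart.

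Fractions of an oocyte were compared with whole oocytes at the same 18 cycles. The fractions came from 2 other oocytes, so input, oocyte and depth cannot be told apart against the whole oocytes. The tests treat the libraries of fractions as independent, although they share these 2 lysates. The mean share of the cluster was 1.07-fold that of whole oocytes at 18 cycles in 1/2 and 1.24-fold in 1/4, with each library above both whole oocytes, and larger still in 1/8. Its summed level was 1459 and 1579 CPM in 1/2, 1788 and 1743 in 1/4, and 4314 and 5221 in 1/8, against 1414 and 1429 in whole oocytes. The mean in 1/8 was 4767 ± 641 CPM (SD, n = 2), which is 3.35-fold that of whole oocytes at 18 cycles and 0.608 of that at 10 cycles.

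Among the most abundant members, Fbxw24 had 319 and 385 CPM in 1/2, 425 and 414 in 1/4, and 1030 and 1242 in 1/8. Fbxw18 had 140 and 180 CPM in 1/2, 182 and 214 in 1/4, and 540 and 632 in 1/8. For Fbxw15 the values were 214 and 236 CPM in 1/2, 254 and 231 in 1/4, and 547 and 683 in 1/8. The libraries of 1/8 were the high ones in all 3 genes, with no overlap with any other library at 18 cycles. For Fbxw16 the values were 103 and 113 CPM in 1/2, 145 and 134 in 1/4, and 349 and 530 in 1/8. Fbxw21 had 168 and 155 CPM in 1/2, 162 and 174 in 1/4, and 452 and 532 in 1/8. For Fbxw19 the values were 175 and 181 CPM in 1/2, 237 and 203 in 1/4, and 469 and 475 in 1/8. Both libraries of 1/8 again lay above those of 1/2, of 1/4 and of whole oocytes at 18 cycles. For Fbxw28 the values were 107 and 118 CPM in 1/2, 141 and 134 in 1/4, and 309 and 417 in 1/8. Fbxw14 had 108 and 94.5 CPM in 1/2, 120 and 119 in 1/4, and 258 and 354 in 1/8. In these near-identical copies the libraries of 1/2 and 1/4 also lay above both whole oocytes at 18 cycles. Fbxw20 had 101 and 97.3 CPM in 1/2, 94.6 and 94.5 in 1/4, and 287 and 270 in 1/8. Fbxw13 had 23.1 and 19.5 CPM in 1/2, 26.8 and 24.4 in 1/4, and 73.3 and 85.2 in 1/8. In both of these low members 1/8 stood clear of all other libraries at 18 cycles.

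With median ratio size factors, 0 of the 10 members passed the edgeR test in 1/2, against 0.122% of 14788 genes in either direction, and none had an unadjusted p under 0.05. The log2 fold changes in 1/2 ran from -0.06 to 0.45 with a median of 0.05. In 1/4, 0 of 10 passed as well, against 0.460% of genes, with 0 at an unadjusted p under 0.05 in edgeR and log2 fold changes of -0.14 to 0.59. DESeq2 called 0 members in either fraction. In 1/8, all 10 members were higher than in whole oocytes at 18 cycles with median ratio size factors, against 7.06% of genes called higher. With ERCC size factors all 10 were lower, against 87.5% of genes called lower. Under the median ratio the members had a median log2 fold change of 1.58 beside 0.03 over all genes. Fbxw13 rose most, by 1.92 on the log2 scale (standard error 0.36, adjusted p = 0.000561, edgeR), and Fbxw19 least, by 1.19 (standard error 0.27, adjusted p = 0.00238, edgeR). Fbxw24 rose 2.84-fold (standard error 0.27 on the log2 scale, adjusted p = 0.000341, edgeR), and Fbxw28 had the lowest adjusted p of the members, 7.89e-05. Without the first whole oocyte at 18 cycles, 6 members passed, and Fbxw13, Fbxw15, Fbxw19 and Fbxw20 did not, with adjusted p of 0.012, 0.0228, 0.0207 and 0.0615 in edgeR. Their log2 fold changes were then 1.83, 1.15, 1.17 and 0.94, against 1.92, 1.37, 1.19 and 1.36 with all libraries. Fbxw19 also missed the threshold without the second whole oocyte (adjusted p = 0.0147, edgeR), and Fbxw20 without the first library of 1/8 (adjusted p = 0.0122, edgeR).

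A direct comparison of 1/8 with 1/4, added after the data were seen, avoids the whole oocytes. In it 9 of the 10 members were higher in 1/8, against 1.54% of genes, with log2 fold changes from 1.04 for Fbxw19 to 1.59 for Fbxw16 and a median of 1.43. Fbxw19 did not pass (adjusted p = 0.0137, edgeR). In edgeR, 0 members passed without the second library of 1/8, without the first of 1/4 or without the second of 1/4, although in each of these fits all 10 had an unadjusted p under 0.05, and DESeq2 called 10 with all libraries. Members that lost their call when a library was left out had log2 fold changes of 1.06 to 1.70. With all libraries the 9 called members had 1.28 to 1.59. Count-weighted GC content was 50.2% ± 0.196 in 1/2 and 50.3% ± 0.237 in 1/4, and 49.2% and 48.1% in the libraries of 1/8. Genes called higher in 1/8 than in whole oocytes had a median GC content of 45.0% and those called lower 55.2%. The part of base composition in the result was not tested.

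**Figure D4:**
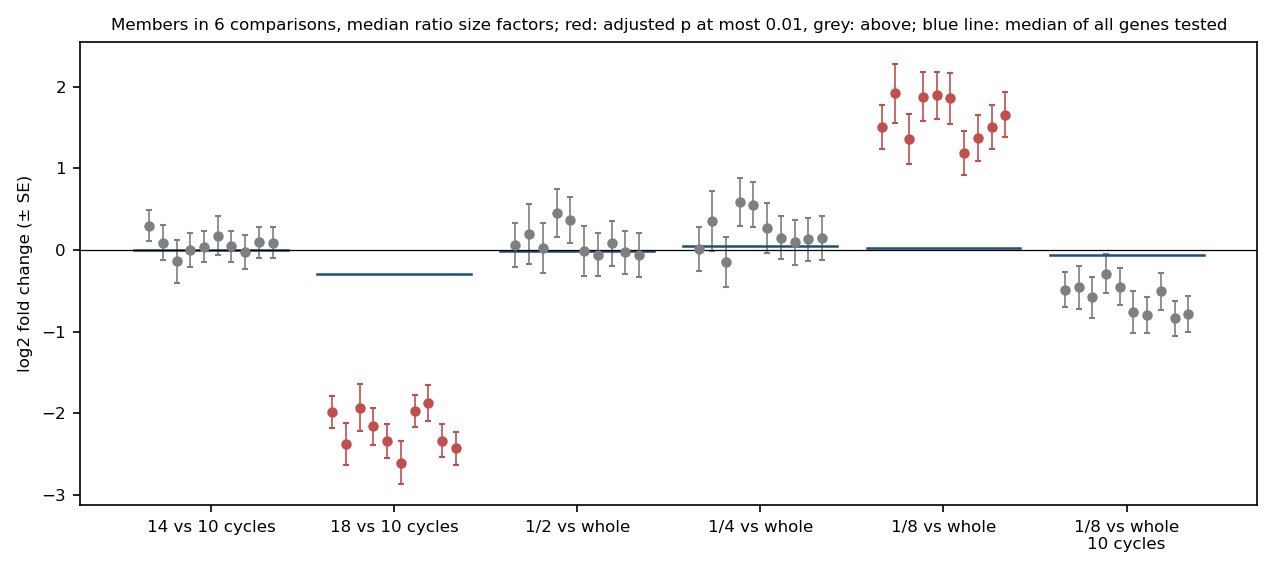
Log2 fold change of each member (points in order of position on the chromosome, with standard errors) in 6 comparisons with median ratio size factors; red points passed an adjusted p of 0.01 and blue lines mark the median of all genes tested. All 10 members are low in 18 against 10 cycles and high in 1/8 against whole oocytes. With ERCC size factors 0 members passed in the former, where 8348 of 17532 genes were higher and 0 lower. In the latter all 10 were lower with ERCC size factors, against 87.5% of genes.

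Scaled by the spike-in, the same fractions give cluster counts relative to the transcripts added to each lysate, and why the spike-in differed between libraries was not tested. Per 1000 ERCC counts the members had 640 and 543 counts in 1/2, 383 and 303 in 1/4, and 213 and 243 in 1/8, against 2649 and 1655 in whole oocytes at 18 cycles. Each fraction lay below the whole oocytes, and the libraries of the 3 fractions did not overlap. Relative to whole oocytes at 18 cycles, the members' ratio was 0.275 in 1/2, 0.159 in 1/4 and 0.106 in 1/8, while that of all gene counts was 0.258, 0.128 and 0.032. Against whole oocytes at 10 cycles, whose ratio to the spike-in was 2678 ± 131 (SD, n = 2), the members stood at 0.221, 0.128 and 0.085. All 10 members were lower in 1/2 with ERCC size factors, against 52.0% of genes, with a median log2 fold change of -1.88 beside -2.00 over all genes, while under the median ratio 0 passed. In 1/4 all 10 were lower, against 69.7% of genes, with a median of -2.57 beside -2.69. In 1/8 all 10 were lower, against 87.5% of genes, with a median of -3.37 beside -4.92, so the members fell by less than the typical gene and lay 1.55 above it on the log2 scale. Fbxw19 fell by 3.78 (standard error 0.50, adjusted p = 1.24e-09, edgeR) and Fbxw13 by 3.04 (standard error 0.58, adjusted p = 3.6e-06, edgeR) in 1/8. In 1/2, 4 members passed without the first whole oocyte, where the median was -1.46 and Fbxw14 went from -1.57 to -0.69. Without the second library of 1/2, 0 passed in edgeR, all 10 had an unadjusted p under 0.05, and the log2 fold changes of -2.02 to -1.31 stayed near the -2.06 to -1.57 found with all libraries. Fbxw28 was lost without the first library of 1/2, at a log2 fold change of -1.824 against -1.607 with all libraries. Fbxw13 and Fbxw14 were lost without the first of 1/4, at -1.733 and -1.541 against -1.765 and -1.573. Without the second of 1/4, Fbxw13 was lost at -1.74. In 1/4, Fbxw14 was not called without the first whole oocyte, where its log2 fold change went from -2.2 to -1.347. Fbxw13, Fbxw14 and Fbxw28 were not called without the second library of 1/4. Their log2 fold changes were then -2.125, -2.014 and -1.952, against -2.363, -2.2 and -2.157 with all libraries.

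The smallest input at 18 cycles was also set against whole oocytes at 10 cycles, a pair of groups that differ in input, cycle number and oocyte together. Every library of 1/8 was below every whole oocyte at 10 and 14 cycles in each member. By edgeR, 0 of 10 members passed, as did 0% of 18041 genes, while 7 members had an unadjusted p under 0.05 and DESeq2 called 3 lower (Fbxw18, Fbxw19 and Fbxw24). The log2 fold changes were all negative, from -0.84 for Fbxw24 to -0.29 for Fbxw14, with a median of -0.54 beside -0.06 over all genes. With ERCC size factors all 10 were lower, as were 74.3% of genes, with a median of -3.33 beside -2.82 over all genes. Whether the distance from 10 cycles differs between 1/8 and whole oocytes at 18 cycles was tested only through the comparison of these groups with each other.

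Within the cluster the proportions shifted less than the total. Fbxw24 made up 21.9% to 27.7% of the cluster's counts in the 12 libraries, Fbxw15 10.5% to 15.9%, Fbxw18 9.57% to 14.3% and Fbxw19 9.09% to 13.3%. Fbxw21 made up 9.02% to 11.6% and Fbxw16 6.07% to 10.9%. The smaller shares belonged to Fbxw28 with 5.95% to 7.99%, Fbxw14 with 3.98% to 7.39%, Fbxw20 with 4.61% to 8.32% and Fbxw13 with 1.23% to 1.70%. Fbxw24 held the largest share in every library and Fbxw13 the smallest. Fbxw15 took its largest share and Fbxw14 its smallest in the second whole oocyte at 18 cycles, which was the shallower of its pair.

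The other Fbxw genes of the region were also lower at 18 than at 10 cycles under the median ratio. Their difference from the members was not tested. All 3 of the genes between the members were called lower by edgeR with median ratio size factors, and 0 of 3 passed with ERCC size factors, where 2 had positive values. Fbxw25 fell by 2.35 (standard error 0.23, adjusted p = 9.38e-05, edgeR) and Fbxw22 by 1.95 (standard error 0.26, adjusted p = 0.000354, edgeR). In 1/8 against whole oocytes at 18 cycles, 2 of these 3 genes were higher under the median ratio, against 7.06% of genes. With ERCC size factors all 3 were lower there, against 87.5%. In 1/8 against 1/4, 1 of the 3 was higher under the median ratio, against 1.54% of genes. Beyond the last member, Fbxw26 had 414 and 396 CPM at 10 cycles, 414 and 429 at 14 cycles, 72.6 and 69.1 at 18 cycles, 70.3 and 73.6 in 1/2, 90.6 and 96.6 in 1/4, and 222 and 261 in 1/8. Whole oocytes at 18 cycles and libraries of 1/2 overlapped as the low ones, and 1/8 lay between these and the oocytes of 10 and 14 cycles. Fbxw26 fell by 2.25 (adjusted p = 6.33e-05, edgeR) and Fbxw27 by 2.02 (adjusted p = 0.000136, edgeR), while both were near 0 with ERCC size factors at -0.01 and 0.17. Genes that flank the run of Fbxw genes were too few to compare with the members, and some had low counts. The 6 nearest protein-coding genes, 3 on each side, are Tma7, Ccdc51, Plxnb1, Spink8, Nme6 and Camp, of which 4 passed the filter. Under the median ratio, edgeR called 0 of these 4 between 18 and 10 cycles, against 10.8% of all genes lower and 12.3% higher. Of the 4, 1 had an unadjusted p under 0.05, and DESeq2 called 1 lower. With ERCC size factors edgeR called 0 lower and 2 higher, Tma7 and Plxnb1 (adjusted p = 0.000568 and 0.00671). Of all genes, 8348 of 17532 were then higher and 0 lower. Nme6, a nucleoside diphosphate kinase family gene, had a log2 fold change of -1.25 (adjusted p = 0.0189, edgeR) and the plexin gene Plxnb1 one of -0.63 (adjusted p = 0.12, edgeR), which turned to 0.96 and 1.57 with ERCC size factors. Between 18 and 14 cycles, 1 of the 4 was called lower under the median ratio, against 10.7% of genes, which was Nme6 (log2 fold change -1.75, adjusted p = 0.00322, edgeR), and with ERCC size factors 0 were lower and 2 higher, against 47.9% of genes higher. Nme6 stood at 12.4 ± 2.76 CPM per kb (SD, n = 4) in the oocytes of 10 and 14 cycles, and Camp, which encodes an antimicrobial peptide, had no count in any library.

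Partners of F-box proteins in the SCF ligase were abundant in the same oocytes. Skp1a, the adaptor that the F-box binds, stood at 1150 ± 69.7 CPM per kb in the 4 oocytes of 10 and 14 cycles, Cul1, the cullin scaffold, at 277 ± 17.0 and Rbx1, the RING subunit, at 25.3 ± 3.24 (SD, n = 4). Skp1a had 2664 and 2635 CPM at 10 cycles, 2324 and 2551 at 14 cycles, 521 and 401 at 18 cycles, and 2028 and 2671 in 1/8. Like the members, Skp1a was low in the whole oocytes at 18 cycles and higher in 1/8 and after fewer cycles. Unlike them, its values in 1/8 lay on both sides of those at 10 and 14 cycles, where each member's lay below. This difference was not tested. Skp1a fell by 2.27 between 18 and 10 cycles (standard error 0.20, adjusted p = 6.36e-05, edgeR) and Cul1 by 1.27 (standard error 0.19, adjusted p = 0.000605, edgeR), whereas with ERCC size factors their log2 fold changes were 0.006 and 0.98. Of the 3 SCF core genes, edgeR called 2 lower and 0 higher under the median ratio, against 10.8% and 12.3% of all genes, and DESeq2 called 2 lower and 1 higher. All 3 had an unadjusted p under 0.05 in edgeR, and Rbx1 had a log2 fold change of 0.81 (adjusted p = 0.014, edgeR). With ERCC size factors 0 of the 3 were lower and 1 was higher, against 0% and 47.6% of all genes. The gene called higher was Rbx1, at 3.05 (adjusted p = 5.38e-06, edgeR). Neddylation of the cullin and its removal by the COP9 signalosome switch these ligases on and off. Of 15 genes of neddylation and exchange, 4 were lower and 5 higher at 18 than at 10 cycles under the median ratio, against 10.8% and 12.3% of all genes, while 11 were higher and 0 lower with ERCC size factors, against 47.6% and 0%. Dcun1d1, which promotes cullin neddylation, fell by 1.66 (adjusted p = 0.00049, edgeR) and the signalosome gene Cops2 by 1.58 (adjusted p = 0.000602, edgeR), and both had positive values with ERCC size factors, 0.52 and 0.62.

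Fbxw genes elsewhere in the genome were called in both directions, and their difference from the members was not tested. Of 10 such genes, which include Btrc and Fbxw7, receptors for cell cycle and signalling proteins, 1 was lower and 5 were higher at 18 than at 10 cycles by edgeR under the median ratio, against 10.8% and 12.3% of all genes, and 8 were higher and 0 lower with ERCC size factors, against 47.6% and 0%. Their median log2 fold change was 0.82, beside -2.25 in the members of the cluster. Fbxw8, a receptor known to work with CUL7, had 66.9 and 56.7 CPM at 10 cycles, 76.8 and 75.6 at 14, and 225 and 149 at 18 cycles. Both oocytes at 18 cycles were above the other 4. The gene called lower was Fbxw4, with 266 and 327 CPM at 10 cycles, 290 and 276 at 14, 48.4 and 107 at 18, and 306 and 234 in 1/8. Its direction was that of the members, with a fall of 1.67 (standard error 0.35, adjusted p = 0.00415, edgeR) that turned to 0.40 with ERCC size factors. Fbxw10 had a log2 fold change of -2.87 and was not called (adjusted p = 0.0319, edgeR). Fbxw8 rose by 1.86 (standard error 0.21, adjusted p = 0.000155, edgeR) and Fbxw17 by 1.47 (standard error 0.28, adjusted p = 0.00244, edgeR). Per kb of exon in the oocytes of 10 and 14 cycles, the Fbxw genes outside the cluster lay below 9 of the 10 members, with Fbxw4, which was above Fbxw13, the highest at 91.8 ± 8.54 CPM per kb and Fbxw10 the lowest at 0.885 ± 0.243 (SD, n = 4). Of 7 F-box genes with roles in meiosis or the oocyte, edgeR called 1 higher and 0 lower under the median ratio (3 at an unadjusted p under 0.05, and 2 higher and 0 lower by DESeq2), and 5 were higher with ERCC size factors, against 12.3% and 47.6% of all genes called higher. The called gene was Fbxo5, which encodes the inhibitor EMI1 of the anaphase-promoting complex, with a rise of 0.91 (standard error 0.22, adjusted p = 0.00802, edgeR). Fbxo47, which acts in meiotic prophase, had a log2 fold change of -1.89 (adjusted p = 0.0182, edgeR) and 0.39 with ERCC size factors.

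Most oocyte markers were lower at 18 cycles under the median ratio. Their steps between fractions differed in size from those of the members, which was not tested. Of the 10 oocyte markers, 8 were lower and 0 higher at 18 than at 10 cycles under the median ratio, against 10.8% and 12.3% of all genes, with a median log2 fold change of -1.48, and with ERCC size factors 0 were lower and 3 higher, against 0% and 47.6%. Their summed level was 24090 and 21537 CPM at 10 cycles, 23547 and 25106 at 14, and 7130 and 5983 at 18 cycles. In the fractions it was 9309 and 8778 CPM in 1/2, 12975 and 14076 in 1/4, and 19884 and 19416 in 1/8. The means of the groups had the same order as in the cluster, but the steps between fractions differed in size. In 1/4 against whole oocytes at 18 cycles under the median ratio, the markers had a median log2 fold change of 0.75 beside 0.15 in the members, with 0 called by edgeR, 6 at an unadjusted p under 0.05 and 4 called higher by DESeq2. Between 1/8 and 1/4 the median was 0.19 beside 1.43 in the members, and 2 of 10 markers were called higher, against 1.54% of genes. In 1/8 against whole oocytes 6 of 10 were higher under the median ratio, against 7.06% of genes, and all 10 were lower with ERCC size factors, against 87.5%. Bmp15, a growth factor of the oocyte, fell by 1.99 (adjusted p = 9.73e-05, edgeR) and Oosp1, a secreted oocyte protein gene, by 2.46 (adjusted p = 0.00027, edgeR), and with ERCC size factors their values were 0.24 and -0.37. Among granulosa and cumulus markers, edgeR called 1 of 8 tested lower, against 10.8% of all genes, and DESeq2 called 2. The 1 gene was Cyp19a1 (the aromatase gene), which fell by 1.92 (adjusted p = 0.00139, edgeR) and stood at 0.29 with ERCC size factors, and Nr5a2 had -1.01 (adjusted p = 0.011, edgeR) and 1.27 with ERCC size factors. The summed granulosa and cumulus markers were 123 and 73.1 CPM at 10 cycles, 89.7 and 134 at 14, and 57.0 and 24.6 at 18 cycles. In the fractions they summed to 32.1 and 30.0 CPM in 1/2, 52.9 and 52.5 in 1/4, and 76.2 and 65.8 in 1/8. Of the theca and stroma markers 0 of 4 tested passed in edgeR, with 1 at an unadjusted p under 0.05 and 0 by DESeq2, and Cyp17a1 and Dcn, which had the lowest adjusted p, missed the threshold at 0.135 and 0.0675. For blood and immune markers Cd68 was the 1 gene tested and did not pass (adjusted p = 0.67, edgeR, with 0 at an unadjusted p under 0.05 and 0 by DESeq2). The part of these marker levels in the result was not tested.

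Promoters of the members were read to compare their sequences. The groups differ in cycle number and input, and the part of promoters in the members' levels was not tested. The RefSeq promoter table (GRCm38.p6), with 250 bases before and 50 after each start, holds 9 of the 10 members, all but Fbxw13. Between the 36 pairs the promoters were 84.9% to 97.7% identical with a median of 90.9%, and Fbxw14 and Fbxw28 were again the closest pair. On either strand, CAGCTG occurs in 9 of 9 promoters of members and in 16.3% of the 32851 promoters of the table. This palindrome is one form of CANNTG, the E-box that basic helix-loop-helix factors bind, which occurs in 9 of 9 and in 72.3%. The letters TATAAA occur in 0 of 9 promoters of members against 13.6% of all promoters, TAATTG in 0 of 9 against 8.0%, and TGATTG in 1 of 9 (Fbxw16) against 14.0%. CAGCTG was picked for display after the stretch had been seen, and paralogs share their descent, so the 9 promoters are not independent. A match is not a measured binding site.

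The 80 bases around the copy of CAGCTG nearest the start are shown for 4 members to let the reader see how alike these promoters are, each written 5′ to 3′ on the minus strand with CAGCTG in capitals. They belong to the most abundant member, Fbxw24 (chr9:109626118-109626197), to Fbxw18 (chr9:109702739-109702818), to Fbxw16, which fell most (chr9:109449198-109449277), and to Fbxw28 (chr9:109339713-109339792).
Fbxw24: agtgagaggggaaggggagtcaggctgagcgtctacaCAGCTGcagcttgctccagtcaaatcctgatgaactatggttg
Fbxw18: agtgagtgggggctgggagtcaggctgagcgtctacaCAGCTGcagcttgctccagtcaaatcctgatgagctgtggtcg
Fbxw16: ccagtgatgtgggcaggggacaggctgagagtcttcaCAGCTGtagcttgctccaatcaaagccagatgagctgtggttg
Fbxw28: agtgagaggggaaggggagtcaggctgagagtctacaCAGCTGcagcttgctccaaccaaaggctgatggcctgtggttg
The stretch of Fbxw19 (chr9:109495937-109496016) has the same 80 bases as that of Fbxw28. Over the 36 pairs of members the stretches were 75.0% to 100% identical with a median of 86.2%. The capitals begin between 80 and 125 bases before the start.

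Finally, all genes with a mean of at least 10 CPM that are no member, 8849 in number, were ranked by how closely their pattern over the 12 libraries followed the summed cluster. The measure was the root mean square difference in log2(CPM + 1) after centring each gene on its mean. Fbxw26 was closest at 0.065, followed by C87977 on chromosome 4 at 0.126 and Fbxw27 at 0.147. Next came AC126035.1, on a scaffold outside the assembled chromosomes, at 0.15 and Bmp15 on the X chromosome at 0.155. So 2 of the 5 closest genes are the Fbxw genes that follow the last member. Fbxw25 ranked 7, Fbxw23 ranked 70 and Fbxw22 ranked 88. C87977 had 667 and 698 CPM at 10 cycles, 723 and 752 at 14 cycles, 109 and 139 at 18 cycles, and 360 and 552 in 1/8. These genes were selected for matching the cluster over the same libraries, so their agreement with it follows from the selection. For C87977 and AC126035.1 the log2 fold changes between 18 and 10 cycles were -2.19 and -2.18 under the median ratio and -0.015 and 0.079 under ERCC size factors.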

How the data were processed

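Poly(A) RNA-seq counts of 12 libraries from GV oocytes and fractions of them were analysed. The authors deposited raw, unnormalized counts for Ensembl genes and ERCC molecules, and reads were not deduplicated. According to the labels, reads were trimmed with cutadapt 2.5, mapped to mm10 with STAR 2.7.2a and counted with HTSeq 0.9.1. The labels give no strand setting, the file names carry the tag strno, and the methods name other versions of these 3 tools and default settings for counting. Gene models, of which 55480 of the 55573 IDs have one, came from GENCODE mouse release 21 on GRCm38.

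A gene was kept in a fit when 2 or more of its libraries had 5 counts or more. Genes kept were tested with edgeR 4.0.16 in R 4.3.3 (quasi-likelihood test, Benjamini-Hochberg over all genes tested, threshold 0.01). The cycle fit held 6 whole oocytes, the fraction fit 8 libraries at 18 cycles, and the last fit all 12 in 6 groups. Size factors were the median ratio over the genes kept or over ERCC molecules passing the same filter. Standard errors are the log2 fold change divided by the square root of F. The code was tested on simulated data. Sequence windows, identities (global alignment of the longest transcripts) and motifs were computed with Biopython 1.88. Depth ran from 1702062 to 13806199 gene counts per library.

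The named genes are all members, the 2 genes of each list with the lowest adjusted p between 18 and 10 cycles, and the 5 closest in pattern. Genes named beyond these (Gdf9, Inha, Rbx1, Fbxw4, Fbxw10, Fbxw23, Camp and others given as list members or ranks) were chosen after their values were seen. Lists were the other Fbxw genes of the region, flanking genes, Fbxw genes elsewhere, SCF core, neddylation and exchange, F-box genes of meiosis, and markers of oocyte, granulosa and cumulus, theca and stroma, and blood and immune cells. Members and lists were chosen with earlier results of these data known. Fbxw26 and Fbxw27 were grouped after the data were seen. Alternatives were DESeq2 1.42.0, keeping every gene, a stricter filter of 10 counts in all libraries, the replicate number as a block, TMM, ERCC or total ERCC size factors, only the 2 groups compared, all 12 libraries in a fit, and leaving out each library. All alternatives for 1/8 against 1/4, those for named genes outside the members, and ERCC size factors and DESeq2 for the lists were chosen after seeing the data. Other datasets that the study compares were not analysed here.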

Additional observations from a re-analysis of the deposited data

How the results depend on the processing

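The counts of members called were compared over all settings. With ERCC size factors in place of the median ratio, the count went from 10 to 0 between 18 and 10 cycles and from 10 to 0 between 18 and 14 cycles (edgeR, 0 members at an unadjusted p under 0.05 in each; DESeq2 was not run with them), and from 0 to 10 in 1/8 against whole oocytes at 10 cycles. In the last comparison DESeq2 called 3. With the replicate block the counts were 0 between 14 and 10 cycles, 10 and 10 for 18 against 10 and 14 cycles, 0 in 1/2, 0 in 1/4, 10 in 1/8 and 9 in 1/8 against 1/4 under the median ratio, 10, 10 and 10 under ERCC, and 0 in 1/8 against 10 cycles, the same counts as without it. Differences between the replicates correlated between groups at -0.182 to 0.244 (median 0.0488, 15 pairs of groups, across 8859 genes, which are not independent). Leaving out 1 library at a time gave 0 to 0 members between 14 and 10 cycles, 10 to 10 for 18 against 10 cycles, 10 to 10 for 18 against 14 cycles, 0 to 0 in 1/2, 0 to 0 in 1/4, 6 to 10 in 1/8 and 0 to 9 in 1/8 against 1/4 under the median ratio. With ERCC size factors it gave 0 to 10 in 1/2, 7 to 10 in 1/4 and 10 to 10 in 1/8, and for 1/8 against 10 cycles under the median ratio 0 to 0. A library left alone in its group was taken to vary like the others.

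ERCC size factors turned the sign of these log2 fold changes between 18 and 10 cycles. Among members the values became 0.25 for Fbxw21, 0.21 for Fbxw20, 0.14 for Fbxw14, 0.27 for Fbxw19 and 0.31 for Fbxw15. Among other genes they became 0.38 for Fbxw22, 0.17 for Fbxw27, 1.57 for Plxnb1, 0.006 for Skp1a, 0.98 for Cul1, 0.52 for Dcun1d1, 0.62 for Cops2, 0.24 for Bmp15, 0.29 for Cyp19a1 and 0.079 for AC126035.1. Nme6, Nr5a2 and Fbxo47, called in neither setting, became 0.96, 1.27 and 0.39, and Fbxw4, named outside the rule, became 0.40. Between 18 and 14 cycles they became 0.36 for Fbxw20, 0.16 for Fbxw14, 0.24 for Fbxw19 and 0.36 for Fbxw15. The scaling itself moved the median of all genes from -0.29 to 1.96, and why the spike-in differed was not tested. Of the values for the members, for genes named by the rule and for the cluster as a whole under other settings, 2092 kept direction and side of the threshold or, where untested, stayed within these bounds: the spread of replicates or, for counts, 1.5 times. A further 103 kept direction and lost the threshold, 32 gained it, 88 moved (untested values by more than the spread, counts by over 1.5 times, fold changes called in neither setting across 0) and 19 called in at least 1 of the 2 settings changed sign. The summed cluster was 5.40-fold lower at 18 than at 10 cycles per gene count plus reads on no feature, and 5.44-fold lower without the 100 most abundant genes of each library. The shallowest libraries were the second of the smallest fraction, with 1702062 gene counts, and the second whole oocyte at 18 cycles, with 1706478. Fbxw13, the rarest member, had 145 counts in the former and 31 in the latter. The cause of these changes was not tested.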
